A study of Rattus norvegicus with 3 samples.

Results

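The insulin-like growth factor (IGF) genes described here are the ligands IGF1 and IGF2, the receptors IGF1R and IGF2R, and the binding proteins IGFBP2, IGFBP3, IGFBP4, IGFBP5, IGFBP6 and IGFBP7. These 10 genes were chosen by name, with their No-SCI and SCI values already known, so their differences between the groups are a description and were not tested. All 10 are among the 12758 gene symbols of the table, each with a single entry. The RNA came from female Sprague Dawley rats, 3 months old, that had a laminectomy at T9 alone (No-SCI, 2 libraries) or with a moderate to severe contusion at that level (SCI, 1 library). The sample labels show this single SCI library, whereas the methods of the study give 2 animals per condition. At 24 h after surgery a piece of about 2 mm was cut from the cord at T8, on the rostral side, and dissociated with a cold active protease at 6 °C. The cells were pelleted, and the RNA is that of the supernatant, which the study treats as an acellular fraction holding cut axons, and was sequenced as stranded, rRNA-depleted total RNA. In such bulk RNA, fewer cells of a type and less RNA per cell cannot be told apart.

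IGF1 and IGF2 are secreted growth factors that act mainly through the receptor tyrosine kinase encoded by IGF1R, which signals through adaptor proteins to the PI3K-AKT and RAS-ERK cascades. The IGF2R protein, also the cation-independent mannose 6-phosphate receptor, takes up IGF2 and leads it to degradation in lysosomes. The binding proteins hold the ligands outside the cell, can block or prolong their action, and are themselves cut by proteases. In the nervous system IGF1 is made by neurons, microglia and macrophages among other cells, and IGF2 and several binding proteins are abundant in the meninges and the choroid plexus.

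All values are the authors' group FPKM, a fragment count scaled to transcript length and library size, with 1 estimate for each group. No value per library was used here, so no SD, no interval and no test of a difference can be given. The fragment count behind each gene's value is unknown. In place of a test, a gene is counted as higher or lower where the values of the groups differ at least 2-fold, without a pseudocount. Over all 12758 symbols, 7.93% were at least 2-fold higher in SCI and 12.1% at least 2-fold lower, with a median log2 ratio (SCI over No-SCI) of −0.12. Over all symbols 1012 were higher and 1538 lower by this count, or 1216 and 1224 once the median log2 ratio was centred at 0. The lowest value in the table is 1, and every listed gene has at least 1.41 FPKM in one of the groups. Whether the authors added 1 to every value is unknown. Had they done so, the ratios of low genes printed here would be too small, and some values after subtracting 1 FPKM are therefore given beside them.

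Of the 10 IGF system genes, 7 were at least 2-fold higher in SCI (against 7.93% of all symbols), none was at least 2-fold lower (against 12.1%), and 3 lay between. Since the genes were picked with this contrast in view, the count describes them and nothing is read from its distance to the background. The 7 were both ligands and 5 of the 6 binding proteins, and the 3 that stayed within 2-fold were both receptors and IGFBP4. The median log2 ratio of the 10 genes was 2.75.

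**Figure D1:**
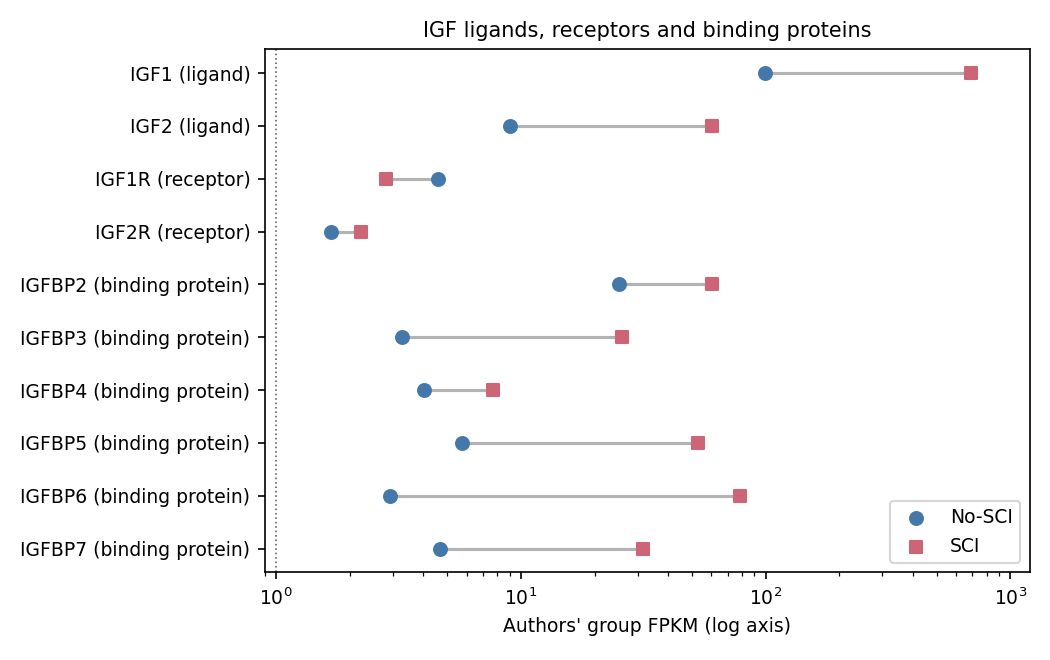
Authors' group FPKM of each IGF system gene on a log axis, with No-SCI as circles and SCI as squares; the dotted line marks 1, the lowest value in the table. The SCI value lies to the right of the No-SCI value for 9 of the 10 genes and to the left for IGF1R, and the longest line is that of IGFBP6, from 2.93 to 78.6 FPKM.

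Both ligands were higher in SCI. IGF1 stood at 99.9 FPKM in No-SCI against 687 FPKM in SCI, 6.88-fold higher with a log2 ratio of 2.78. It was the most abundant of the 10 genes in both groups, and its place among all symbols went from percentile 84.9 to percentile 98.0. IGF2, the growth factor best known from fetal growth, was at 9.01 FPKM in No-SCI and 60.4 FPKM in SCI, 6.71-fold higher with a log2 ratio of 2.75. Its percentile went from 34.3 to 78.2. Since both ligands differed by nearly the same factor, the level of IGF1 over that of IGF2 was 11.1 in No-SCI and 11.4 in SCI.

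The receptors stayed at low levels in both groups. IGF1R was at 4.58 FPKM in No-SCI and 2.82 FPKM in SCI, a log2 ratio of −0.70 or 1.63-fold lower, and it was the only one of the 10 genes with a lower value in SCI. IGF2R was the least abundant of the 10 in both groups, with 1.68 FPKM in No-SCI and 2.22 FPKM in SCI, a log2 ratio of 0.41. Both its values lie near 1, the floor of the table. Neither receptor reached 2-fold in either direction. With 1 FPKM subtracted the log2 ratios were −0.98 for IGF1R, just short of 2-fold, and 0.85 for IGF2R. IGF1R stood at 2.73 times the level of IGF2R in No-SCI and 1.27 times in SCI, or 5.28 and 1.48 times with 1 FPKM subtracted. IGF1 stood at 21.8 times the level of its receptor gene IGF1R in No-SCI and 244 times in SCI, or 27.6 and 378 times with 1 FPKM subtracted. The values of IGF1, IGF2, IGF1R and IGF2R carry more than 6 significant digits in at least one group, as do those of 58.6% of all symbols, whereas those of the binding proteins do not. Extra digits can arise where FPKM of more than 1 transcript record were added up, and levels set across genes with and without them are to be read with that reserve.

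IGFBP6, a binding protein that prefers IGF2 over IGF1, showed the largest ratio of the 10 genes. It was at 2.93 FPKM in No-SCI, the lowest of the binding proteins, and at 78.6 FPKM in SCI, the highest of them. The ratio was 26.8-fold (log2 4.74), which ranked 3 among all 12758 symbols when signed log2 ratios were ordered from highest to lowest. With 1 FPKM subtracted it was 40.2-fold (log2 5.33). IGFBP5, a binding protein of the extracellular matrix and bone, was at 5.73 FPKM in No-SCI and 52.8 FPKM in SCI, 9.21-fold higher with a log2 ratio of 3.20.

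IGFBP3, the main carrier of IGFs in serum, was at 3.27 FPKM in No-SCI and 25.8 FPKM in SCI, 7.90-fold higher with a log2 ratio of 2.98. IGFBP7, which binds IGFs with low affinity and is known from blood vessels, was at 4.66 FPKM in No-SCI and 31.6 FPKM in SCI, 6.78-fold higher with a log2 ratio of 2.76. The log2 ratios of IGF1, IGF2, IGFBP3 and IGFBP7 thus lay between 2.75 and 2.98, although their No-SCI levels ran from 3.27 to 99.9 FPKM. With 1 FPKM subtracted the same 4 log2 ratios ran from 2.80 for IGF1 to 3.45 for IGFBP3.

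IGFBP2, a major binding protein of the brain and the cerebrospinal fluid, was at 25.2 FPKM in No-SCI and 60.3 FPKM in SCI, 2.40-fold higher with a log2 ratio of 1.26. IGFBP4, generally described as an inhibitor of IGF action, was at 4.03 FPKM in No-SCI and 7.70 FPKM in SCI, 1.91-fold higher with a log2 ratio of 0.93. These were the genes just inside and just outside the minimum of 2-fold. With the median of all symbols centred at 0, IGFBP4 passed it with a log2 ratio of 1.05.

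**Figure D2:**
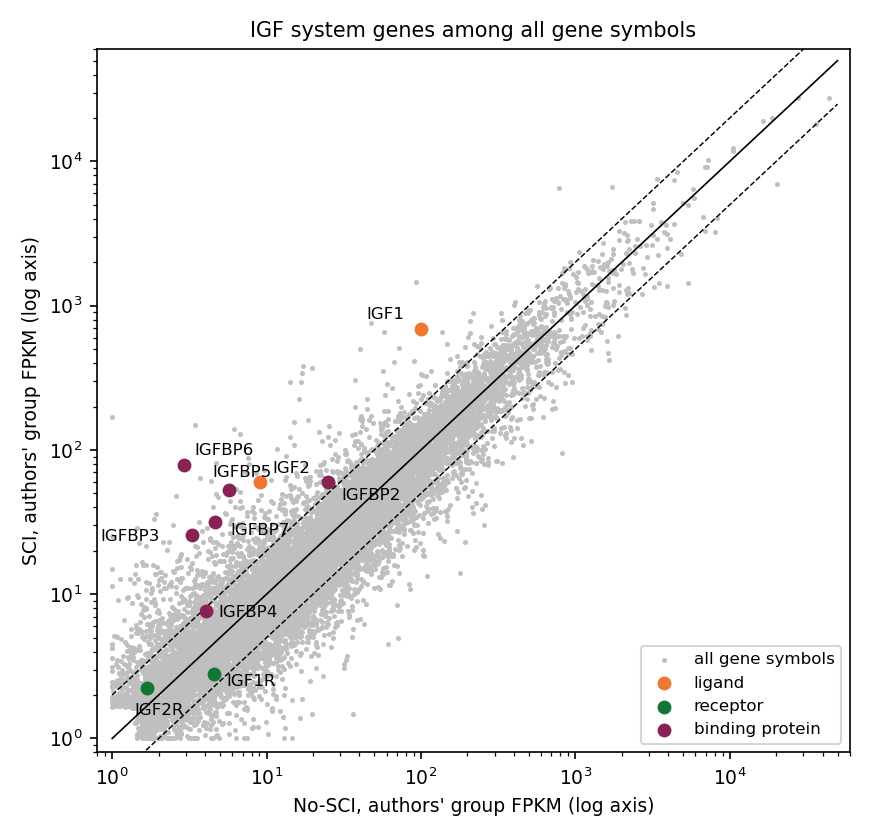
SCI against No-SCI FPKM on log axes for all 12758 gene symbols (grey), with the IGF system genes coloured by role; the solid line marks equal values and the dashed lines mark 2-fold. The 7 genes above the upper dashed line are both ligands and 5 binding proteins, while IGFBP4, IGF1R and IGF2R lie between the dashed lines.

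The order of the 10 genes changed with the group. In No-SCI the FPKM levels ran IGF1, IGFBP2, IGF2, IGFBP5, IGFBP7, IGF1R, IGFBP4, IGFBP3, IGFBP6 and IGF2R, and 8 of the 10 were below the median of all symbols, 17.2 FPKM. In SCI they ran IGF1, IGFBP6, IGF2, IGFBP2, IGFBP5, IGFBP7, IGFBP3, IGFBP4, IGF1R and IGF2R, and 3 were below the median of 15.6 FPKM. Without a spread between animals it is unknown which neighbours differ, and IGF2 and IGFBP2 in SCI, at 60.4 and 60.3 FPKM, are the closest pair.

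The make-up of the binding protein RNA also differed between the groups. Summed over the 6 genes it was 45.8 FPKM in No-SCI and 257 FPKM in SCI, 5.61-fold higher. IGFBP2 made up 55.0% of that sum in No-SCI and 23.5% in SCI, whereas IGFBP6 made up 6.40% and 30.6%. IGFBP5 made up 12.5% in No-SCI against 20.6% in SCI. IGFBP4 went the other way, with 8.80% against 3.0%. The shares of IGFBP3 were 7.14% and 10.1%, and those of IGFBP7 10.2% and 12.3%. Of the 211 FPKM by which the sum was higher in SCI, IGFBP6 gave 35.9%, IGFBP5 22.3% and IGFBP2 16.6%. In No-SCI IGFBP2 exceeded the next binding protein 4.39 times, and in SCI IGFBP6 exceeded the next one, IGFBP2, 1.3 times.

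The ligands summed to 109 FPKM in No-SCI and 748 FPKM in SCI, 6.87-fold higher. Binding protein RNA stood at 0.421 of ligand RNA in No-SCI and at 0.343 in SCI. Leaving out IGFBP7 for its low affinity gave 0.378 and 0.301. The sums of binding proteins and ligands were thus higher by factors of similar size, while the gene that led the binding protein sum was IGFBP2 in No-SCI and IGFBP6 in SCI. Protein levels were not measured.

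**Figure D3:**
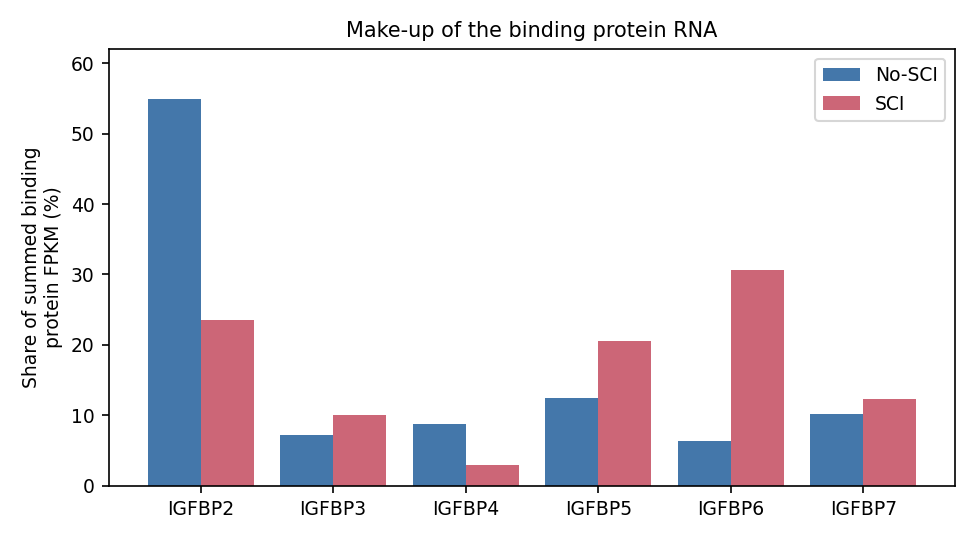
Share of each binding protein in the summed binding protein FPKM of a group, in percent, for No-SCI and SCI. The bar of IGFBP2 is at 55.0% in No-SCI and 23.5% in SCI, and that of IGFBP6 at 6.40% and 30.6%.

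Since 7 genes were higher together, the sequences before their start sites were set beside each other. The windows are the 250 bases before the annotated start, from the RefSeq promoters of the GRCr8 assembly, a different build from the rn6 genome behind the FPKM values. All 10 genes have a window, and IGF2 has 2. Those of IGFBP6, IGFBP5, IGFBP3 and IGF1, which include the 3 largest ratios and the most abundant gene, are printed with that of IGF1R, the gene that was lower in SCI. Capitals mark each match on either strand to one of 3 motifs. The TATA box was searched as TATAAA. For the GC box the letters were GGGCGG. The E-box, CANNTG, has the same letters on both strands.
IGFBP6, chr7:135154669-135154918, plus strand: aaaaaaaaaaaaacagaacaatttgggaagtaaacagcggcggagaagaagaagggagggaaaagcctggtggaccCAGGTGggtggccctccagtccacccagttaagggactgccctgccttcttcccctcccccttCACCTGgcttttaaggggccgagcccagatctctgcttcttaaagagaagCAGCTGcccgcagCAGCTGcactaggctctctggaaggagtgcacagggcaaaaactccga
IGFBP5, chr9:81914188-81914437, minus strand: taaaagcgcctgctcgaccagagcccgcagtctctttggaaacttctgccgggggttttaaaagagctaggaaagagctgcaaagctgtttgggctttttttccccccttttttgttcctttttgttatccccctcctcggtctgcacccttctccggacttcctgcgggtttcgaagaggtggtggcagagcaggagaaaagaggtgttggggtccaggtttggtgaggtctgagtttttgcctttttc
IGFBP3, chr14:86277945-86278194, minus strand: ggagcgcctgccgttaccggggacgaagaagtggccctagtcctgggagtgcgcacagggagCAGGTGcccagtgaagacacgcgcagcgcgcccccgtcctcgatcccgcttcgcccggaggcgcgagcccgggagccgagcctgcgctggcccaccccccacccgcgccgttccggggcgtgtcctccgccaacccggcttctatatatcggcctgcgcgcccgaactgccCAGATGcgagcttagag
IGF1, chr7:24172282-24172531, plus strand: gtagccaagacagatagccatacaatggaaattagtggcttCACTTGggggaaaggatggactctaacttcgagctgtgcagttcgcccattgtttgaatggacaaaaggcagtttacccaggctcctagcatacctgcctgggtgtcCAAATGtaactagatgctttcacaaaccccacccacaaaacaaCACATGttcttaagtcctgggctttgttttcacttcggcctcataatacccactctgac
IGF1R, chr1:130959747-130959996, plus strand: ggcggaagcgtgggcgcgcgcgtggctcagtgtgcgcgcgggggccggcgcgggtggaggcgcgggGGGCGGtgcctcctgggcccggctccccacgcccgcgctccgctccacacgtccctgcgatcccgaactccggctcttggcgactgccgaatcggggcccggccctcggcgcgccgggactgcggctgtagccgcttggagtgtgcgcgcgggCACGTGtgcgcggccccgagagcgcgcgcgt

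The windows of the genes that were higher in SCI ranged widely in base composition. The number of CG dinucleotides was 3 for IGF1, 5 for IGFBP6, 8 for IGFBP5, 11 for IGFBP2, 26 for IGFBP7 and 31 for IGFBP3. The 2 windows of IGF2 had 15 and 7, and the median over 33465 RefSeq windows was 5. Among the genes within 2-fold, the number was 45 for IGF1R, at percentile 99.7 of all windows, 23 for IGF2R and 21 for IGFBP4. TATAAA was found in 1 of the 11 IGF system windows, that of IGFBP4 at 40 bases before the start, and in 12.9% of all windows. GGGCGG was found in 5 of the 11 and in 30.5% of all windows, with 4 matches in that of IGFBP7. CANNTG was found in 8 of the 11 and in 65.5% of all windows, with 4 matches each for IGFBP6 and IGF2R. CCAAT, the CCAAT box, was found in none of the 11 and in 34.0% of all windows. The AP-1 motif TGANTCA was also found in none, and in 6.34% of all windows. A match or its lack describes these letters in these windows alone.

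Other genes of the pathway were taken from 8 lists with 83 genes besides the 10 described here, of which 64 are in the table. Of the 64, 8 (12.5%) were at least 2-fold higher in SCI and 7 (10.9%) at least 2-fold lower, beside 7.93% and 12.1% of all symbols. With the median of all symbols centred at 0, 11 of the 64 were higher and 5 lower, beside 1216 and 1224 of all 12758 symbols. Their median log2 ratio as deposited was −0.18. The genes that carry the signal inside the cell lay on both sides of equal values.

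Among the other ligands and carriers, INS2, an insulin gene and a chromosomal neighbour of IGF2, is listed at 1 FPKM, the lowest value of the table, in No-SCI and at 25.2 FPKM in SCI, so no fold is given. INS1, IGFBP1, IGFBPL1, the acid-labile subunit gene IGFALS, and the receptors INSR and INSRR have no entry. No level can be read from that, because abundant spinal cord genes such as GFAP, MBP and SNAP25 also have no entry.

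Proteases that cut binding proteins, and their inhibitors, had 7 of 8 genes listed, with 2 at least 2-fold higher and none lower. HTRA1, a secreted serine protease with binding proteins among its substrates, was at 8.35 FPKM in No-SCI and 36.5 FPKM in SCI, 4.37-fold higher. STC1, a stanniocalcin that inhibits the IGFBP4 protease PAPPA, was at 1.77 FPKM in No-SCI and 4.03 FPKM in SCI, a log2 ratio of 1.18 that came to 0.86 after adding 1 FPKM. ADAM9 and STC2, with log2 ratios of −0.93 and −0.48, stayed within 2-fold as deposited. STC2 lies near the floor of the table, at 1.56 FPKM in No-SCI and 1.11 FPKM in SCI. With 1 FPKM subtracted the ratios of this list would be larger in size, and its calls were not recounted for that setting. Of the RNA-binding proteins named for IGF2 mRNA, IGF2BP2 is listed, at 3.10 FPKM in No-SCI and 2.76 FPKM in SCI.

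Of the receptor adaptors 12 of 13 are listed, with 1 at least 2-fold higher and 2 lower. GRB10, an imprinted adaptor that dampens IGF and insulin receptor signalling, was at 20.8 FPKM in No-SCI and 71.7 FPKM in SCI, 3.45-fold higher. GAB1 and CRKL, docking and adaptor proteins, had log2 ratios of −1.47 and −1.09, and CRKL was at −0.97 after median centring. SHC1 and CRK, at 0.77 and 0.79, stayed within 2-fold, as did the main substrates of the IGF1 receptor, IRS1 at −0.14 and IRS2 at −0.49.

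Of the PI3K-AKT-mTOR cascade 26 of 27 genes are listed, with 2 at least 2-fold higher, 2 lower and a median log2 ratio of −0.18. FOXO3, a transcription factor held out of the nucleus by AKT, was at 25.1 FPKM in No-SCI and 59.6 FPKM in SCI, and GSK3B, a kinase inhibited by AKT, was at 32.9 and 71.9 FPKM. TSC1 and TSC2, whose proteins form the complex that restrains mTOR, were the genes at least 2-fold lower. TSC1 was at 20.9 FPKM in No-SCI and 6.27 FPKM in SCI, and TSC2 at 116 and 55.7 FPKM. After median centring TSC2 was at −0.94, short of 2-fold. Of the RAS-ERK cascade 11 of 12 genes are listed, and HRAS (log2 ratio 1.14) and the phosphatase gene PTPN11 (−1.29) passed 2-fold. MAPK3, an ERK kinase gene, had a log2 ratio of −0.76 and did not.

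A list of imprinted growth genes, to which IGF2R and GRB10 belong, has 8 of 13 listed. GRB10 and CDKN1C, a cell cycle inhibitor at 52.4 FPKM in No-SCI and 114 FPKM in SCI, were at least 2-fold higher. PEG3 and NDN were at least 2-fold lower, with log2 ratios of −1.55 and −1.26. The median of the list, −0.27, lay near that of all symbols.

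Marker genes of cell types were looked at beside these values, since they moved between the groups too. Of 28 meningeal fibroblast genes 23 are listed, 19 of them at least 2-fold higher in SCI and none lower, with a median log2 ratio of 2.06. Their summed level was 159 FPKM in No-SCI and 1734 FPKM in SCI. MGP and CRABP2 were the most abundant of them in No-SCI, no listed gene of the list is at the lowest value of the table, and SLC22A6, SLC47A1, TBX18, LAMA1 and DPP4 have no entry. The log2 ratio of IGFBP6 was exceeded by 1 of the 23, OSR1, those of IGFBP3 and IGFBP5 by 5, those of IGF1, IGF2 and IGFBP7 by 6, and that of IGFBP2 by 17. The part of meningeal RNA in the values of the IGF system genes was not tested.

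The other lists moved less or the other way. Of 18 microglia and macrophage genes, all listed, 4 were at least 2-fold higher and 3 lower, with a median log2 ratio of 0.33 and summed levels of 1528 FPKM in No-SCI and 2123 FPKM in SCI. AIF1 and FCER1G were the most abundant of them in No-SCI, and the log2 ratio of IGF1, 2.78, lies above the highest of the 18, 1.61. Of 11 listed endothelial genes 2 were at least 2-fold higher and 1 lower, and of 10 listed mural genes 0 and 1. Of 8 listed neutrophil and blood genes 3 were at least 2-fold higher and 1 lower, with a median log2 ratio of −0.45. The neutrophil genes S100A8, S100A9 and CXCR2 had log2 ratios of 1.54, 1.70 and 1.06, whereas CSF3R and LCN2 had −0.93 and −0.85. CXCR2 was at 1.02 FPKM in No-SCI and 2.13 FPKM in SCI, near the floor of the table, so its ratio is uncertain. HBB, a hemoglobin gene at 490 FPKM in No-SCI and 464 FPKM in SCI, made up most of a sum of 603 and 642 FPKM. Astrocyte, oligodendrocyte and neuronal genes had medians of −1.21, −1.53 and −0.52. Skeletal muscle genes summed to 440 FPKM in No-SCI and 49.4 FPKM in SCI, with 9 of 11 listed genes at least 2-fold lower. The part of these cells in the IGF values was not tested either.

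**Figure D4:**
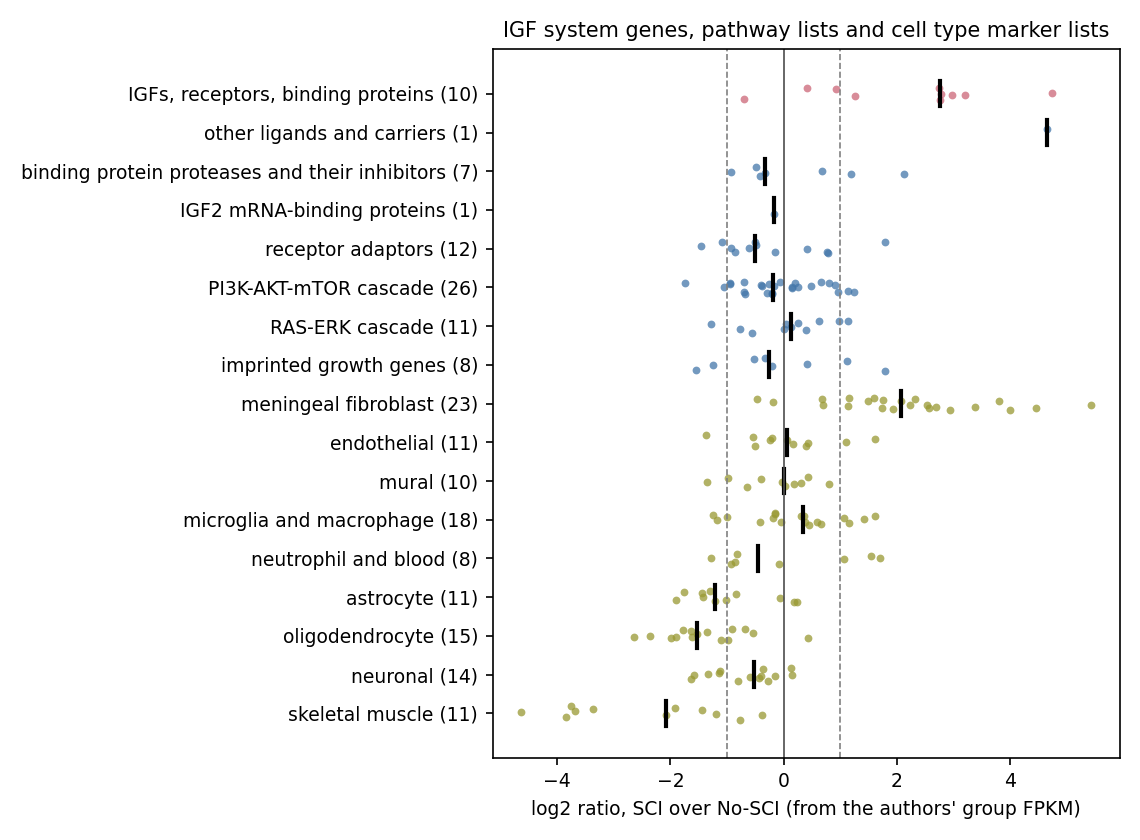
Log2 ratio of SCI to No-SCI for the listed genes of each list, with the number listed in brackets; black bars are medians and dashed lines mark 2-fold. The IGF system genes (median 2.75) and the meningeal fibroblast genes (median 2.06) are the lists of more than 1 gene with a median past 2-fold on the right, and the single point of other ligands and carriers is INS2, listed at 1 FPKM in No-SCI.

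For each of the 7 genes past 2-fold, the 3 named genes with the most similar pair of values were found by their distance in the plane of log2 No-SCI and log2 SCI FPKM. With only 2 group values per gene this likeness says that both levels are close and no more. The nearest to IGFBP6 were SLC6A20 at a distance of 0.45, CST6 at 0.69 and ALDH1A2, an enzyme of retinoic acid synthesis, at 0.69. Nearest to IGFBP5 were ASGR2, GDA and PRRX2, and nearest to IGFBP3 were INMT, GPR4 and COL8A1. IGFBP7 lay closest to OBSL1, MFAP4 and ZFP771, and IGFBP2 to FOXO3, CDKN1A and CCNA2, with FOXO3 at a distance of 0.018. The neighbours of IGF1 were ANXA2, IFITM2 and SRSF2, at 0.47 to 0.67, and those of IGF2 were FAM98C, DHRS3 and NRTN.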

How the data were processed

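Per the study's methods, the authors thinned every library to the depth of the shallowest, mapped it to rn6 with STAR 2.5.4b and used upper quartile normalization. The submitters' processing notes name Cuffdiff 1.3.0, and the methods cufflinks of that version. The deposited table holds 1 FPKM value per group and entry. Its deposited p-value, q-value, fold change (a ratio) and log2 fold change columns are the authors' own comparison and were not used. Where a symbol has several entries, the one with the larger mean was taken.

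From the FPKM values, log2 ratios without a pseudocount, ranks, percentiles, shares and counts past 2-fold were computed with Python 3.11.15, numpy 2.4.6 and pandas 2.3.3, after the steps were tested on simulated data. Genes named are the 10 IGF system genes, of each pathway list up to 2 with the largest ratio in each direction, the 3 entries nearest to each gene past 2-fold, and, of cell type lists, absent or most abundant markers. Any gene of a pathway list may be named too. OSR1, S100A8, S100A9, CXCR2, CSF3R, LCN2 and the chromosomal neighbours that are named were picked after the values were seen. The genes and lists were chosen with earlier results of these data known, and the 5 motifs after the values were seen. The protein sequences planned for comparison were not used here. One result of a pathway list is not reported here.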

Additional observations from a re-analysis of the deposited data

How the results depend on the processing

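The alternatives were pseudocounts of 1 and 0.1 FPKM, median centring, scaling to the same total or upper quartile, summing entries of a symbol, folds of 1.3 and 4, a level of at least 5 FPKM in either group and 1 FPKM subtracted from every value, since an added 1 is possible. For the count of genes past 2-fold, summed folds and level ratios between genes, subtraction was chosen after seeing the data. Scaling moved the log2 ratios of the 10 genes by at most 0.12 and turned none. Adding or subtracting a constant cannot turn a sign, and summing entries cannot move genes with 1 entry. IGFBP4 passed 2-fold after median centring (1.05), upper quartile scaling (1.04) and subtraction of 1 (1.14), which gives 8 genes in place of 7. For IGFBP6 the log2 ratio was 4.34 after adding 1 FPKM and 5.33 after subtracting it. With a minimum of 1.3-fold, 1 of the 10 genes was lower in SCI (IGF1R), and of the 64 pathway genes 20 were higher and 25 lower. With a minimum of 4-fold, 2 pathway genes were higher and 0 lower. The shares of all symbols at these minimums are not given, so nothing is read from these counts. With 1 subtracted, IGF1R over IGF2R in No-SCI was 5.28 in place of 2.73, and IGF1 over IGF1R in SCI 378 in place of 244. Pathway calls lost were CRKL and TSC2 under median centring and upper quartile scaling, STC1 and CRKL after adding 1 FPKM, and STC1 with the 5 FPKM minimum.

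Leaving out a library could not be done, because each group has 1 value. The SCI group rests on 1 library by the labels, so animal, batch and injury cannot be told apart. The precision of low values such as those of IGF2R is unknown, because no fragment count is given with them.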

Other observations

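Genes that lie beside the IGF system genes on the chromosome were looked at as values, with the order of protein-coding genes taken from the RefSeq annotation of GRCr8. Up to 2 listed neighbours on each side gave 36 genes that are not among the 10. Of the 36, 4 were at least 2-fold higher and 4 at least 2-fold lower in SCI, beside 7.93% and 12.1% of all symbols. Their median log2 ratio was −0.09. The neighbours of IGFBP6, namely SPRYD3, TNS2, CSAD and ZNF740, had log2 ratios of −0.59, −0.10, −0.56 and −0.71, against 4.74 for IGFBP6 itself. IGFBP2 and IGFBP5 adjoin each other, with log2 ratios of 1.26 and 3.20. The listed genes on their outer sides, RPL37A and TNS1, were at 0.43 and 0.61. IGF2 lies between MRPL23 (0.50) and INS2 among listed genes. The next gene beyond MRPL23 is the skeletal muscle gene TNNT3, which was at 180 FPKM in No-SCI and 14.1 FPKM in SCI, opposite in direction to IGF2. The other neighbours past 2-fold were MAS1L beside IGF2R (1.17), RARA beside IGFBP4 (1.61) and CXCR2 beside IGFBP5 (1.06), which were higher. MAS1L and CXCR2 were near the floor of the table in No-SCI, at 1.71 and 1.02 FPKM, so their ratios are uncertain. ADGRL3 beside IGFBP7 (−2.64) and HUS1 and TNS3 beside IGFBP3 (−1.50 and −1.03) were lower. The 36 neighbours were set by position alone, but those named were picked after the values were seen, and the differences were not tested.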
